A study of Mus musculus with 6 samples.

Results

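The synaptic vesicle and release machinery genes are the synaptotagmins, synapsins, SV2 proteins, vesicle (VAMP), syntaxin and SNAP-25 family SNAREs, complexins, syntaxin-binding proteins and Rab3 GTPases, together with synaptophysin (Syp), Bassoon (Bsn), Piccolo (Pclo) and the clathrin assembly protein Snap91. They were chosen by symbol, with no measured value as a criterion but with earlier results of these data known. They number 67 of the 17920 genes listed. RNA from cultured mouse cortical cells was sequenced in 6 libraries, 3 labelled WT and 3 labelled KD. Per the labels both groups were brain at stage E13.5, in mid-neurogenesis of the cortex. Per the study's methods, dissociated cortical cells were grown in neurobasal medium with B27, infected with lentivirus for a hairpin RNA (shRNA) that targets Ybx1 (KD) or for a control shRNA (WT), and treated with puromycin, which kills uninfected cells. WT therefore means infected, puromycin-treated control cells and not untouched cortex. The study's results describe the cultured material as neural stem cells, and a figure legend as cortical progenitors. Which of the study's Ybx1 shRNAs was used, and how many embryos went into a culture, is not given in the sources used here. No strain is given either. Ybx1 is a cold shock domain protein that binds mRNA and reads the 5-methylcytosine (m5C) mark, and the comparison asks which transcripts of the release machinery changed when it was reduced.

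A synaptic vesicle is filled with transmitter, tethered at the active zone, primed, and fused with the plasma membrane when calcium enters. Fusion is driven by a SNARE bundle of synaptobrevin (Vamp2) on the vesicle with a syntaxin and SNAP-25 on the plasma membrane. Complexin clamps and then promotes fusion, and synaptotagmin-1 senses calcium. Synapsins tie vesicles into a reserve cluster, and Rab3 links them to the active zone. In embryonic cortex these genes come on as progenitors become neurons, before most synapses exist. Other syntaxins, VAMPs and SNAP proteins serve the same fusion step at endosomes, lysosomes, the Golgi and the autophagosome.

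Library totals lay between 16294635 and 16497505 estimated counts, and the members took 1.05% to 1.08% of a WT library and 0.954% to 0.993% of a KD library. Ybx1 itself stood at 618, 615 and 653 normalised counts (CPM, counts scaled to a common library size) in WT replicates 1 to 3 and at 98.3, 92.2 and 159 CPM in KD replicates 1 to 3. It fell by 2.43 on the log2 scale (SE 0.18, edgeR adjusted p = 1.82e-04), to 18.5% of WT. KD replicate 3 kept the most Ybx1. The second replicate of both groups held few counts of 4 Y-linked genes, 14.12 in WT and 36 in KD against 1218 to 1899 in the other 4 libraries. Libraries that carried the same replicate number deviated together, so the number was also fitted as a block.

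For the members with the most stable changes that the reference table holds, the promoter windows are printed because they show the sequence at the start of genes that moved in opposite directions. Each runs from 250 bases before to 50 bases after the RefSeq start (GRCm38.p6) and is written 5′ to 3′ on the gene's strand. Capitals mark the left part of the RE1 element, TTCAGCACC, which is bound by the neuronal repressor REST, the cyclic AMP response element (CRE), TGACGTCA, and the CCAAT box, the letters CCAAT, all searched on both strands. Syn1 (lower in KD) starts in chrX:20920869-20921168 on the minus strand, Cplx1 (lower) in chr5:108549978-108550277 on the minus strand, Sv2a (higher) in chr3:96180977-96181276 on the plus strand, and the first of 2 Syn2 windows (higher) lies in chr6:115134652-115134951 on the plus strand.
Syn1: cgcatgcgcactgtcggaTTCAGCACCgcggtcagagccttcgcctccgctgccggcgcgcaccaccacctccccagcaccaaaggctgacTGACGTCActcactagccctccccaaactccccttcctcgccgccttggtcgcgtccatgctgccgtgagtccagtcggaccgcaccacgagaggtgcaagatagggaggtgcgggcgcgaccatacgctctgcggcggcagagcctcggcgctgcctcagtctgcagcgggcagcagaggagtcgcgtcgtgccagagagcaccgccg
Cplx1: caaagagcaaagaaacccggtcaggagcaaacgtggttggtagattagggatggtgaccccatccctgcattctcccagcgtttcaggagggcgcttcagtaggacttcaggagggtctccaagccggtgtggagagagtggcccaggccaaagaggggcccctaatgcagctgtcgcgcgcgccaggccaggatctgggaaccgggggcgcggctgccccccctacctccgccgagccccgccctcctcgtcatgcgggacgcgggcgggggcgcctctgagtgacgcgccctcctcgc
Sv2a: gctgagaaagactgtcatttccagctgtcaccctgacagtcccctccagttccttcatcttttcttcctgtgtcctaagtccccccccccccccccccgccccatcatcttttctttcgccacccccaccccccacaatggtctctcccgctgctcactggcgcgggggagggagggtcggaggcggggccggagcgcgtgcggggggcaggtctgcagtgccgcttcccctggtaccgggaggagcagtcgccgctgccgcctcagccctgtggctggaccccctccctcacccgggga
Syn2: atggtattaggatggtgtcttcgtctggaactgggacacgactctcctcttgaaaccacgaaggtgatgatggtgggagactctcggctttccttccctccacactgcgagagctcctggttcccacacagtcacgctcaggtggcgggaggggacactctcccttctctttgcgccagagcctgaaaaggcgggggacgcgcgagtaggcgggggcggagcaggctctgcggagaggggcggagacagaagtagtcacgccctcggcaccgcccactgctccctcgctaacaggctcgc

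In the Syn1 window the RE1 part begins 232 bases and the CRE 159 bases before the start. The windows of Cplx1 and Sv2a and the first of Syn2 held none of the 3 motifs. The second Syn2 window held the CCAAT box on the opposite strand at 2 positions, 124 bases before and 29 bases after the start. Of the 67 members 53 matched the promoter table, with 67 windows. The RE1 part was present in 1 of these windows (1.49%, Syn1) against 0.371% of all 32851 windows, and the CRE in 2 (2.99%, Syn1 and Stxbp3) against 1.79%. The CCAAT box was found in 20 member windows (29.9%) against 37.4% of all windows. It stood in 6 of 18 windows of members that fell (33.3%), 1 of 7 windows of members that rose (14.3%) and 10 of 37 windows of members with no call (27.0%). Member windows had a median GC content of 63.3%, against 52.7% over all windows.

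After Ybx1 knockdown the genes of the release machinery fell more often than they rose. Of the 61 members that passed the filter on low counts, 19 were lower in KD at an edgeR adjusted p under 0.05 (31.1%, where 11.9% of the 13669 genes tested were lower) and 5 were higher (8.20%, where 12% of all genes were higher). The remaining 37 had no call. The median log2 fold change of the tested members was -0.07, against -0.00 over all genes, and 41 were negative. On log2(TPM + 1) the medians were -0.038 and 0.046, and 31.6% of the called members were higher in place of 20.8%. The members were more abundant than most genes, with a median of 78.7 CPM against 31.0 CPM, and calls were more frequent among abundant genes. Among genes of at least 100 CPM, 21.9% were lower and 16.2% higher, and of the 27 members at that level 13 were lower and 3 higher. In 21 members the KD range lay wholly below the WT range and in 9 wholly above it, where 20.6% and 21.0% of all genes did so. Within all 3 same-numbered pairs 26 of the 61 members were lower in KD and 11 higher, where 4196 and 4236 of the 13669 genes were. In bulk RNA, fewer cells of a type and less RNA per cell cannot be told apart.

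**Figure D1:**
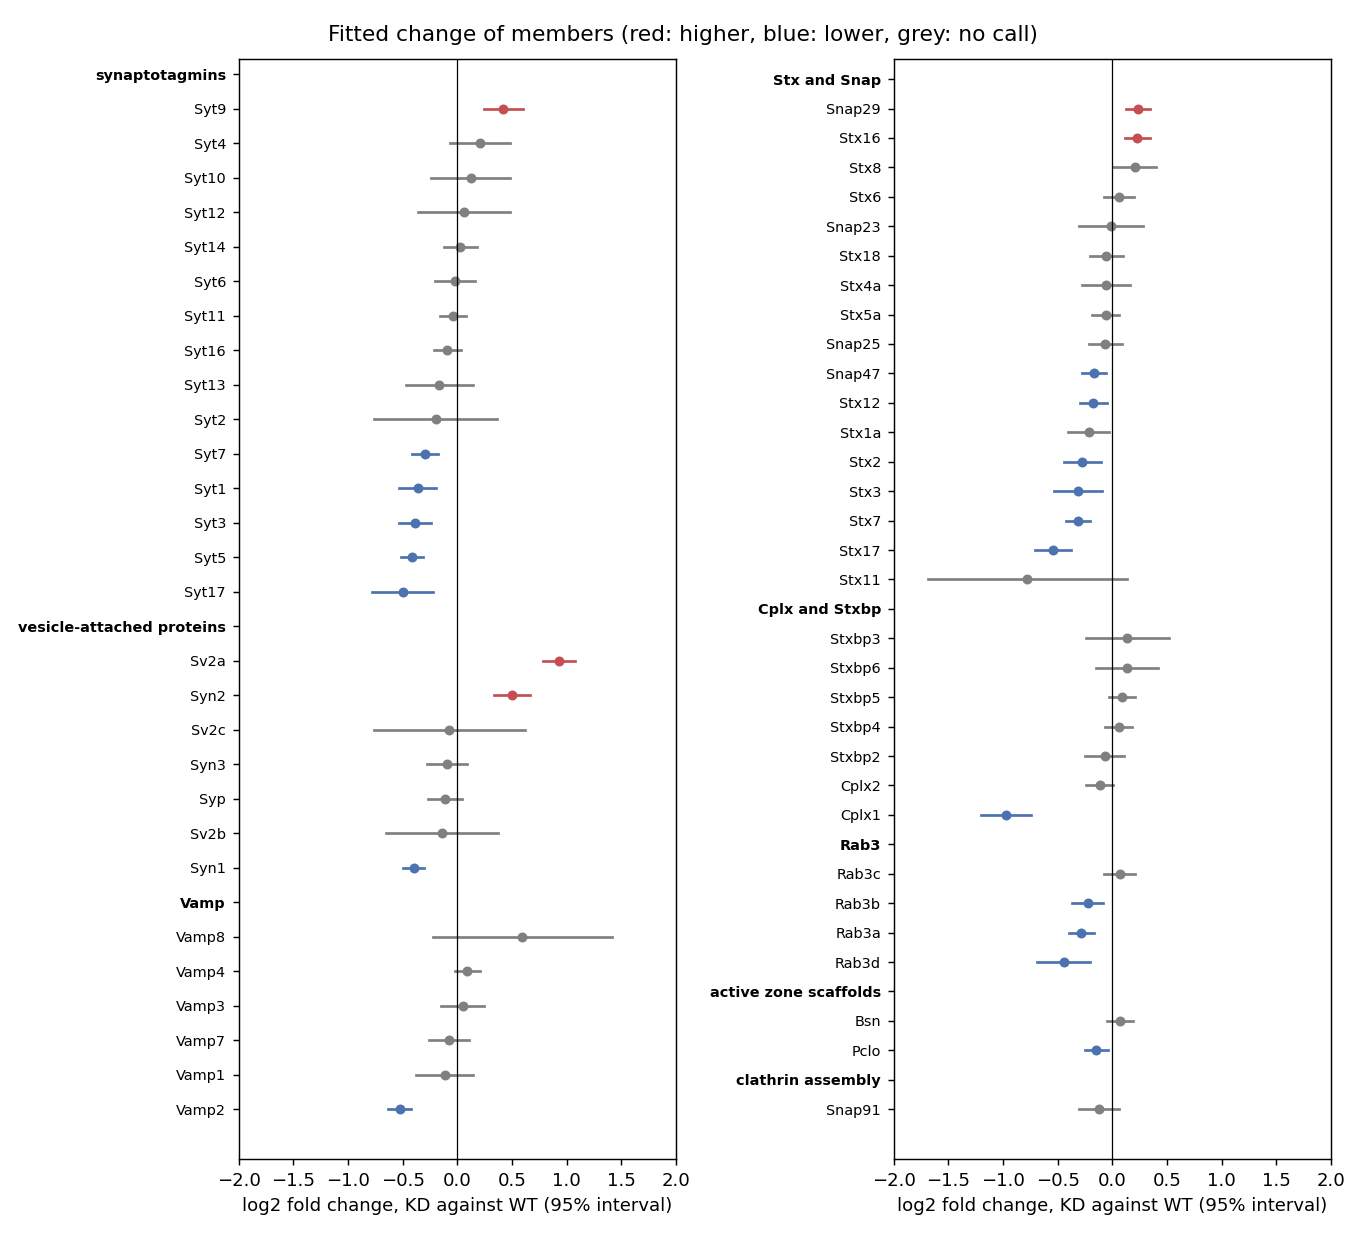
Fitted log2 fold change of KD against WT for 59 of the tested members (points) with 95% intervals (lines), grouped by role, 3 libraries a group. Red marks the 5 members called higher and blue 18 of those called lower, with Cplx1 (-0.97) and Sv2a (0.93) at the ends of the called range.

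The number of members called depended on single libraries, as did the number over all genes. With WT replicate 2 left out 11 members were lower, and 12 were with WT replicate 1 or either of KD replicates 1 and 2 left out. Over all genes 797 were lower without WT replicate 2, in place of 1631. Without WT replicate 1, KD replicate 1 and KD replicate 2 they were 1131, 1077 and 849. Without KD replicate 2, 3 members were higher, and 884 of all genes in place of 1646. Of the called members, 3 of the 5 higher (Sv2a, Syn2 and Syt9) and 10 of the 19 lower (among them Cplx1, Vamp2, Syn1, Syt5, Stx17, Stx7, Syt3, Syt7 and Rab3a) kept their call whichever library was left out. Without both second replicates, which leaves 2 libraries a group, 2 members were higher (Sv2a and Syn2) and 3 lower (Cplx1, Vamp2 and Syn1). Of all genes 135 were then higher and 93 lower. With the replicate number as a block 6 were higher and 20 lower, of all genes 2539 and 2470 in place of 1646 and 1631.

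Of the core fusion SNAREs, the vesicle partner Vamp2 fell, while Snap25 and Stx1a had no call. Vamp2, the main neuronal synaptobrevin (chr11:69088528-69092381), was measured at 827, 819 and 768 CPM in the WT libraries and at 571, 542 and 562 CPM in KD. All 3 KD libraries lay far below the lowest WT library, with little spread in either group. Its log2 fold change was -0.53 (SE 0.046, edgeR adjusted p = 3.70e-04), leaving 69.4% of WT. Snap25, its partner on the plasma membrane, was at 449, 479 and 454 CPM in WT and 395, 471 and 456 CPM in KD, where only KD replicate 1 stood below the WT range. The log2 difference for Snap25 was -0.065 (95% interval -0.22 to 0.086, adjusted p = 0.516), and without KD replicate 1 it was 0.0082. Stx1a, a syntaxin of the plasma membrane, had 174, 185 and 189.8 CPM in WT and 139, 157 and 177 CPM in KD. Its KD replicates 1 and 2 lay below WT and replicate 3 within it. The Stx1a difference of -0.22 had an edgeR adjusted p of 0.0872, 0.00411 with the replicate block and 0.0202 without KD replicate 3. Vamp1, the lesser synaptobrevin, was low in both groups (11.0, 9.13 and 9.15 CPM in WT and 8.78, 9.21 and 9.03 CPM in KD, log2 -0.12, interval -0.38 to 0.14).

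**Figure D2:**
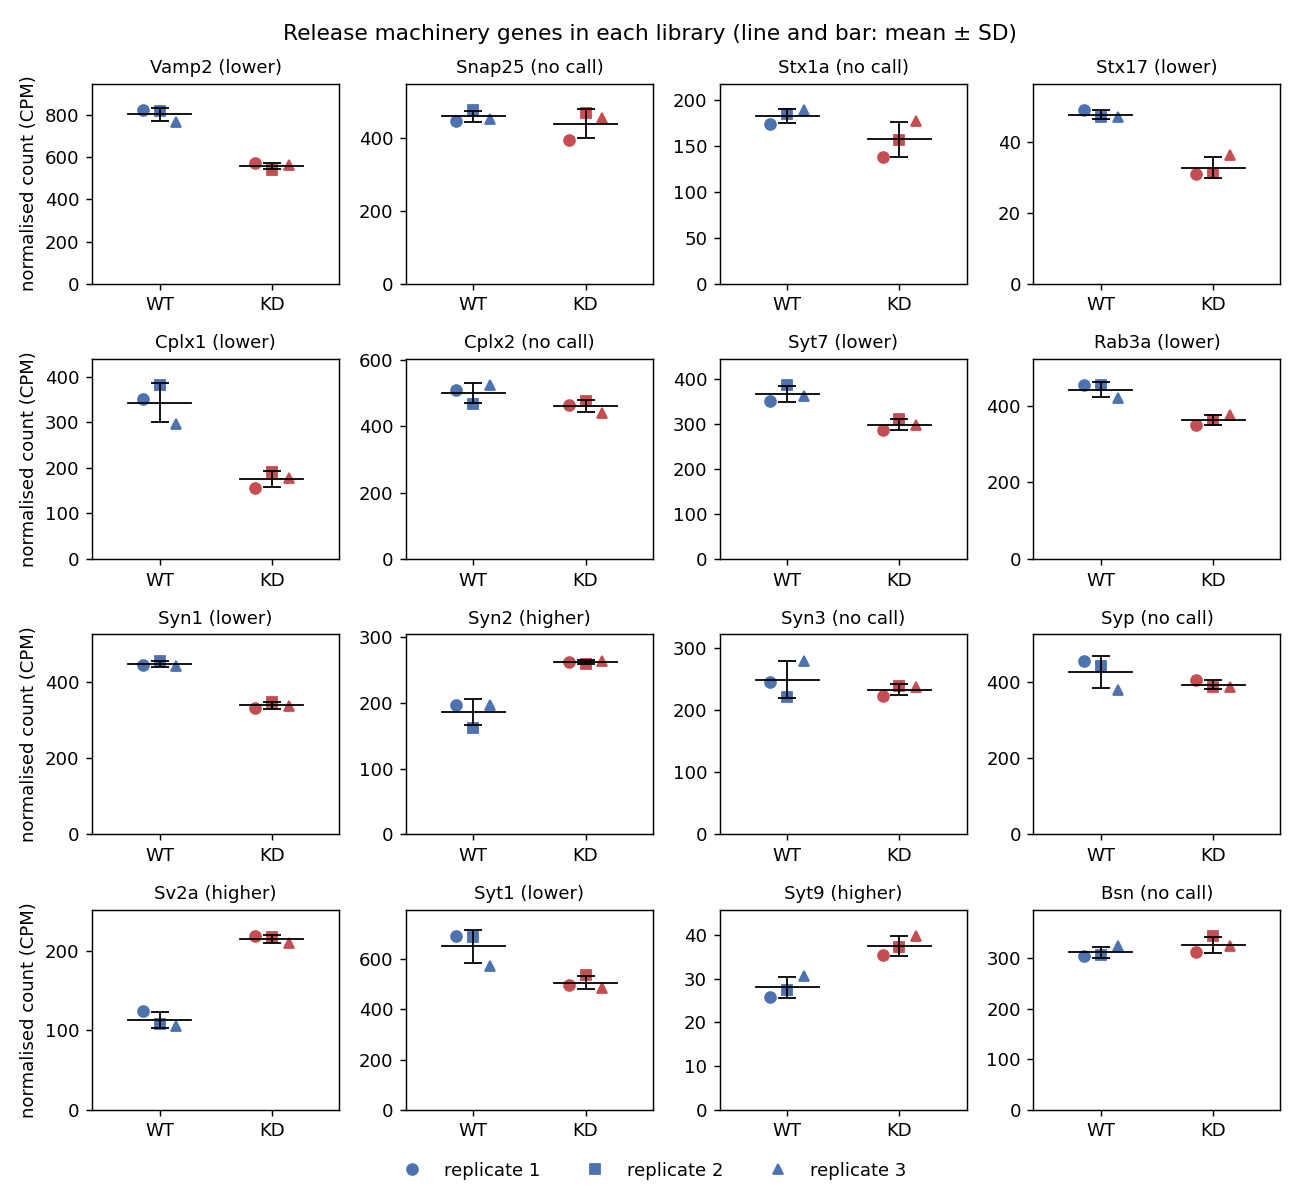
Normalised counts (CPM, linear axes from 0) of 16 members in each of the 3 WT (blue) and 3 KD (red) libraries, with symbols for replicates 1 to 3 and lines and bars for mean ± SD. Vamp2, Stx17, Cplx1, Syt7, Rab3a, Syn1 and Syt1 sit lower in every KD library, Syn2, Sv2a and Syt9 sit higher, and Snap25, Stx1a, Cplx2, Syn3, Syp and Bsn overlap.

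Complexin 1 showed the largest called fall of all members. Cplx1, which binds the assembled SNARE bundle and holds it ready for calcium (chr5:108518554-108550027), stood at 351, 381 and 297 CPM in WT and at 156, 191 and 178 CPM in KD. The highest KD library was far below the lowest WT library, and WT replicate 3 was the lowest of its group. Cplx1 fell by 0.97 on the log2 scale (SE 0.10, edgeR adjusted p = 6.45e-04), to 51.0% of WT, by 1.17, 0.99 and 0.74 within pairs 1 to 3. Cplx2, the other forebrain complexin, was at 508, 467 and 524 CPM in WT and 464, 477 and 441 CPM in KD. The groups overlapped through KD replicate 2 and the log2 difference was -0.12 (interval -0.24 to 0.0071). Cplx3 and Cplx4, best known from retinal ribbon synapses but not confined to them by any value here, were under 0.5 CPM in every library and were not tested. The syntaxin-binding proteins Stxbp2 to Stxbp6 had no call, with log2 differences from -0.072 to 0.14.

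Among the synaptotagmins 5 of 15 tested fell and 1 rose. Syt1, the calcium sensor for fast synchronous release, was at 693, 687 and 575 CPM in WT and 498, 536 and 487 CPM in KD. WT replicate 3 was the lowest WT library and still exceeded all KD libraries. The Syt1 log2 fold change was -0.36 (SE 0.075, edgeR adjusted p = 0.0101), and without WT replicate 2 it was -0.32 with an adjusted p of 0.05025. Syt7, the high-affinity sensor of asynchronous release and facilitation, measured 351, 386 and 362 CPM in WT and 286, 311 and 298 CPM in KD and changed by -0.30 (adjusted p = 0.00577). Syt5, a calcium-binding synaptotagmin, was tight in WT at 207, 207 and 207 CPM and lay at 153, 151 and 162 CPM in KD (log2 -0.41, SE 0.045, adjusted p = 7.78e-04). Syt3, another calcium sensor, went from 42.4, 44.4 and 43.2 CPM to 31.9, 35.9 and 31.8 CPM (log2 -0.39, adjusted p = 0.00449). In Syt5, Syt7 and Syt3 no KD library reached the WT range.

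Syt17, an atypical member with no membrane span, was low at 15.7, 13.0 and 12.6 CPM in WT and 9.26, 9.15 and 10.8 CPM in KD. Its log2 fold change of -0.50 (edgeR adjusted p = 0.0210) lost its call when WT replicate 1 or either of KD replicates 1 and 2 was left out, with adjusted p of 0.0646, 0.0616 and 0.0788. The synaptotagmin that rose was Syt9, a fast sensor used in some limbic and striatal neurons. It had 25.9, 27.5 and 30.6 CPM in WT and 35.3, 37.3 and 39.8 CPM in KD, so that every KD library exceeded every WT library. Its log2 fold change was 0.42 (SE 0.079, adjusted p = 0.00674). Syt4, which does not sense calcium in the usual way and rides on peptide vesicles, was at 247, 287 and 338 CPM in WT and 288, 344 and 374 CPM in KD. The groups overlapped, but within each pair KD was higher, by 0.22, 0.26 and 0.14 on the log2 scale. Syt4 thus had an edgeR adjusted p of 0.247 without and 0.00251 with the replicate block. Syt11, an abundant non-calcium-binding member, showed log2 -0.037 (interval -0.16 to 0.081), and 0.016 on log2(TPM + 1). Syt2, the fast sensor of hindbrain and spinal cord, was at 5.28, 4.44 and 3.18 CPM in WT and 4.99, 2.93 and 3.33 CPM in KD, too low for a narrow interval (-0.76 to 0.37).

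The proteins attached to the vesicle surface divided by paralog. Syn1, the synapsin that marks mature boutons (chrX:20860511-20920918), was at 445, 457 and 442 CPM in WT and 332, 349 and 337 CPM in KD. The gap between the groups was several times the spread within either. Syn1 changed by -0.40 (SE 0.043, edgeR adjusted p = 6.88e-04). Syn2, its close paralog (chr6:115134902-115282626), moved the other way, from 197, 162 and 197 CPM in WT to 263, 259 and 264 CPM in KD. WT replicate 2 was the lowest library, and all KD libraries exceeded the WT range. The Syn2 log2 fold change was 0.50 (SE 0.073, edgeR adjusted p = 0.00239), which is 141% of WT. Syn3, expressed early in neuron development, was at 246, 222 and 280.4 CPM and 224, 239 and 238 CPM with overlapping groups (log2 -0.094, interval -0.27 to 0.085).

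Sv2a, a glycoprotein of synaptic vesicles and the binding site of levetiracetam (chr3:96181227-96195183), showed the largest called rise. Its values were 125, 109 and 106 CPM in WT and 219, 218 and 210.2 CPM in KD. The lowest KD library was well above the highest WT library. The log2 fold change of Sv2a was 0.93 (SE 0.066, edgeR adjusted p = 1.71e-04), which is 191% of WT. Sv2b differed more between replicates than between groups, at 67.4, 90.9 and 119.8 CPM in WT and 60.1, 87.9 and 104 CPM in KD. The fitted Sv2b difference was -0.14 (interval -0.65 to 0.37), and it was 0.089 without WT replicate 3 and 0.055 without KD replicate 1. Within pairs 1 to 3 the log2 differences of Sv2b were -0.16, -0.049 and -0.20. Its edgeR adjusted p was 0.689 without and 0.0569 with the replicate block, so it had no call in either. Syp, the most used vesicle marker, was at 458, 444 and 379.6 CPM in WT and 407, 388 and 388 CPM in KD. WT replicate 3 lay below all KD libraries and the other WT libraries above them. The Syp difference of -0.12 had an edgeR adjusted p of 0.255, and of 0.0224 without WT replicate 3, when it was -0.19.

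Of the 4 Rab3 GTPases 3 fell, where 11.9% of all genes tested were lower, and 21.9% of those at 100 CPM or more. Rab3a, the main Rab of synaptic vesicles, was at 455, 454 and 421 CPM in WT and 351, 365 and 376 CPM in KD, without overlap (log2 -0.28, SE 0.05, edgeR adjusted p = 0.00503). Rab3b, its paralog, had 142, 136 and 122 CPM in WT and 111, 118 and 113 CPM in KD (log2 -0.22, adjusted p = 0.0328), and kept its call only without WT replicate 3, with an adjusted p of up to 0.110 without the others. Rab3d, best known from secretory granules, was at 57.2, 68.0 and 62.6 CPM in WT and 38.3, 48.1 and 51.5 CPM in KD (log2 -0.45, adjusted p = 0.0191). Without WT replicate 2 or KD replicate 2 the adjusted p of Rab3d was 0.0779 and 0.0508. Rab3c showed 319, 309 and 271 CPM in WT and 306, 324 and 312 CPM in KD (log2 0.066, interval -0.078 to 0.21), a difference that was -3.4e-04 without WT replicate 3.

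The paired giant scaffolds of the active zone, Bsn and Pclo, were at similar levels. Bsn was at 304, 306 and 324 CPM in WT and 312, 344 and 323 CPM in KD with overlapping groups (log2 0.068, interval -0.049 to 0.18). Pclo was at 309, 287 and 307 CPM in WT and 269, 275 and 271 CPM in KD. Its log2 fold change of -0.15 just passed the threshold (edgeR adjusted p = 0.0475) and did not pass it without any 1 of the 6 libraries, with adjusted p from 0.0536 to 0.144. Snap91 (AP180), which assembles clathrin on retrieved vesicle membrane, had 215, 213 and 206 CPM in WT and 172, 189 and 221 CPM in KD (log2 -0.12, interval -0.31 to 0.064). Without KD replicate 3, the highest KD library, its difference was -0.22 (edgeR adjusted p = 0.0361).

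Because paralogs can stand in for each other, their shares of the family's transcripts were compared in TPM, the deposited level that corrects for transcript length. With 3 libraries against 3 an exact permutation test cannot go below p = 0.1, so these shares are given as a description. Syn1 made up 63.2%, 67.5% and 62.3% of synapsin TPM in WT and 51.9%, 53.1% and 52.0% in KD. Syn2 made up 24.3%, 20.9% and 23.9% in WT and 35.7%, 34.3% and 34.9% in KD. The summed synapsin level overlapped between the groups, at 478 ± 17.6 TPM in WT and 462 ± 10.9 TPM in KD (SD, n = 3), so the mixture of synapsins differed while the sum did not separate. Complexin differed in both, since Cplx1 held 62.7% ± 4.31 of 570.3 ± 26.5 TPM in WT and 48.3% ± 2.60 of 392 ± 25.4 TPM in KD (SD, n = 3).

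Sv2a rose from 62.7% ± 8.24 to 77.8% ± 4.64 of SV2 TPM (SD, n = 3) while the SV2 sum went from 99.3 ± 7.11 to 158 ± 5.12 TPM. Rab3 and synaptobrevin fell as sums with less change in mixture. The Rab3 sum was 958 ± 34.8 TPM in WT and 836 ± 22.6 TPM in KD, with Rab3a at 79.5% and 77.8% of it. The synaptobrevin sum was 862 ± 26.0 TPM in WT and 622 ± 16.1 TPM in KD, with Vamp2 at 99.1% and 98.9%. Among the fast calcium sensors Syt1, Syt2 and Syt9, Syt1 held 94.3% ± 0.938 in WT and 90.9% ± 0.726 in KD, and Syt9 held 5.31% ± 1.0 and 8.65% ± 0.743 (SD, n = 3).

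**Figure D3:**
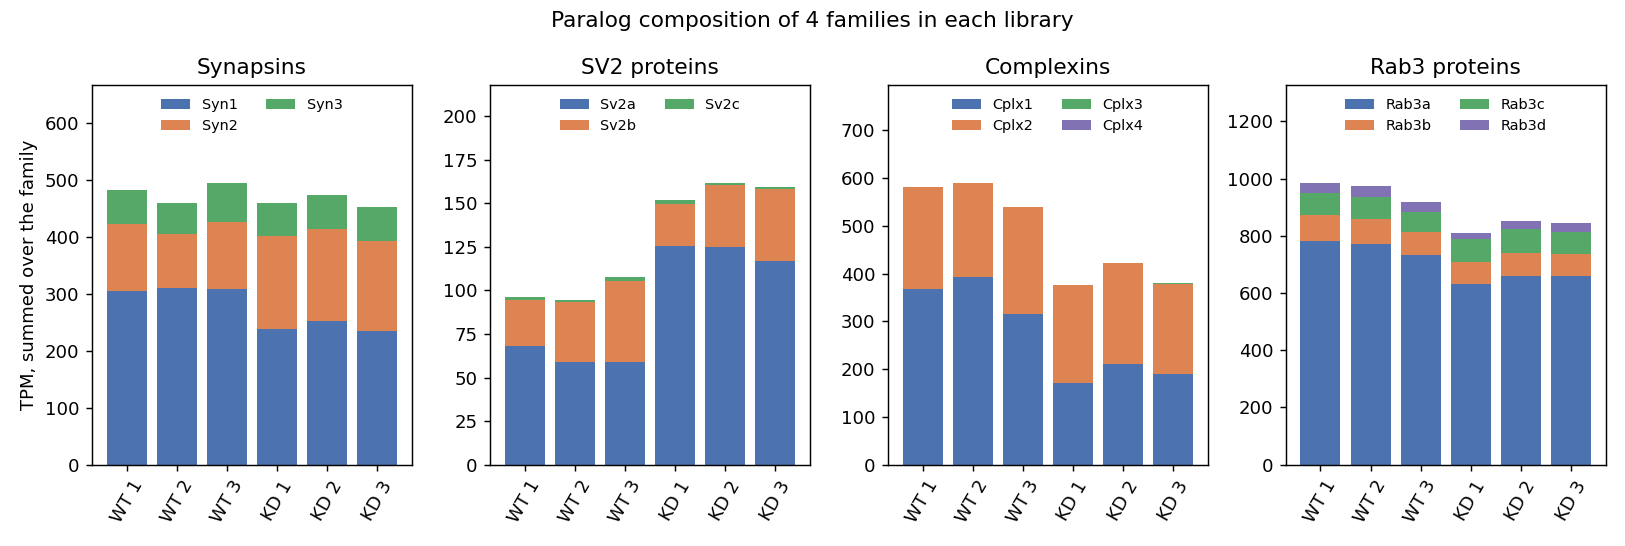
Summed TPM of the synapsins, SV2 proteins, complexins and Rab3 proteins in each library (bars, linear axes from 0), divided by paralog. Syn2 takes a larger part of a similar synapsin total in KD, the SV2 total grows through Sv2a, and the complexin total shrinks through Cplx1.

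The syntaxins and SNAP proteins outside the synaptic vesicle changed in both directions. Of the 18 Stx and Snap genes tested, 6 were lower and 2 higher, neither Stx1a nor Snap25 among them. Stx17, the syntaxin of the autophagosome, was at 49.3, 47.3 and 47.1 CPM in WT and 31.1, 31.2 and 36.3 CPM in KD, without overlap (log2 -0.54, SE 0.072, edgeR adjusted p = 0.00161). Snap29, which bundles with Stx17 when autophagosomes fuse with lysosomes, rose from 66.2, 63.6 and 63.3 CPM to 74.5, 76.9 and 75.5 CPM (log2 0.23, adjusted p = 0.0108, 0.0507 without KD replicate 2). Vamp8, the lysosomal partner of both, was under 1 CPM in every library. Stx16, which acts in transport from endosomes to the trans-Golgi network, had 97.1, 97.4 and 102 CPM in WT and 115, 121 and 112 CPM in KD (log2 0.23, adjusted p = 0.0147). That call was lost without WT replicate 2 (0.0613) or KD replicate 2 (0.0637).

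Of the endosomal syntaxins, Stx7 was at 276, 277 and 275 CPM in WT and 209, 227 and 229 CPM in KD (log2 -0.32, edgeR adjusted p = 0.00300), and Stx12 at 199, 209.9 and 191 and 169, 179 and 184 CPM (log2 -0.17, adjusted p = 0.0449). Stx2, a syntaxin of the plasma membrane, was at 21.7, 23.6 and 22.4 CPM in WT and 17.9, 19.0 and 19.0 CPM in KD (log2 -0.27, adjusted p = 0.0294). Stx3, another, was at 22.2, 23.5 and 23.7 CPM in WT and 17.1, 17.5 and 21.2 CPM in KD (log2 -0.31, adjusted p = 0.0453). Snap47, an atypical SNAP-25 relative, changed by -0.17 (adjusted p = 0.0318). These calls were close to the threshold. Stx2 lost its call without any 1 library (highest adjusted p 0.107), Stx3 without any but KD replicate 3 (0.144), Stx12 without any but WT replicate 3 (0.160), and Snap47 without WT replicate 1, WT replicate 2, KD replicate 1 or KD replicate 3 (0.101). Stx7 and Stx17 kept theirs. Vamp3, Vamp4 and Vamp7, which serve recycling endosomes, the Golgi and lysosomes, had no call, with log2 differences of 0.047, 0.09 and -0.074.

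By role in the cell, 23 of the tested members were listed under neurotransmitter release, of which 8 were lower and 2 higher with a median log2 fold change of -0.12. Another 23 belong to general membrane trafficking, of which 7 were lower and 2 higher with a median of -0.06. The 15 others, on neither list, had 4 lower and 1 higher and a median of -0.02. They are mainly synaptotagmins, among them the calcium sensors Syt3, Syt7 and Syt9, so the release list leaves out these sensors. The difference between these groups was not tested, and the groups differed in abundance. The median level was 286 CPM for release, 39.4 CPM for trafficking and 43.3 CPM for the others. At 100 CPM or more lay 19 release genes, of which 8 were lower and 2 higher. Of 4 trafficking genes at that level 3 were lower and 1 higher, and of 4 others 2 were lower and 0 higher. Among all genes of at least 100 CPM, 21.9% were lower and 16.2% higher. In summed TPM the release genes were at 5016 to 5257 in WT and 4404 to 4623 in KD, and the trafficking genes at 1452 to 1464 and 1349 to 1439, without overlap in either. Abundant genes weigh most in these sums, such as Vamp2 (mean 854 TPM in WT and 615 in KD) for release. For trafficking Stx7 was at 286 and 238 TPM. Of the tested members 13 release genes and 14 trafficking genes had no call, and 2 of each were higher.

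The order of levels in TPM shows which parts of the machinery dominated. In WT, Vamp2 was first with 854 ± 25.4 TPM, then Rab3a with 762 ± 24.6 and Snap25 with 501 ± 13.4 TPM (SD, n = 3), and the ranges of these 3 genes did not overlap. Further down Snap47, Syp and Cplx1, at 390.4, 387 and 359 TPM, overlapped each other, and so did neighbours in the order Syn1, Syt1, Stx7, Syt5 and Syt11, between 275 and 307 TPM. In KD the ranges of Rab3a (mean 650.1 TPM) and Vamp2 (mean 615 TPM) overlapped, with Rab3a above Vamp2 in replicates 2 and 3 and below it in replicate 1. By mean, Cplx1 went from rank 7 to rank 15 and Sv2a from rank 26 to rank 19. At least 100 TPM was reached by 20 members in WT and 19 in KD. Under 1 TPM lay 6 members in WT and 7 in KD. All members together summed to 7579 to 7732 TPM in WT and 6734 to 7103 TPM in KD.

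Other genes of the synapse were taken from 3 lists. Of 23 priming and active zone genes tested, 8 were lower and 2 higher (median log2 -0.14), and 13 and 3 with the replicate block. The largest called changes were Ppfia4, a liprin-alpha scaffold (-0.61, edgeR adjusted p = 0.00104), and Doc2b, a calcium sensor of spontaneous release (-0.55, 0.00979), against Unc13c, a Munc13 priming factor (0.72, 0.0258), and Ppfia2, another liprin-alpha (0.23, 0.0152). Of 17 genes of the vesicle membrane and its transporters, 8 were lower (47.1%) and 1 higher (median -0.19), and 10 and 4 with the block. At 100 CPM or more lay 11 of the 17, of which 8 were lower and 1 higher. Atp6ap2, an accessory subunit of the proton pump that powers vesicle filling, changed by -0.44 (edgeR adjusted p = 0.00229). Svop, a transporter-like relative of SV2, rose as Sv2a did, from 137, 134 and 131 CPM to 176, 173 and 162 CPM (log2 0.35, adjusted p = 0.00225).

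Of 22 vesicle endocytosis genes, 6 were lower (27.3%) and 1 higher (median log2 -0.05), and 8 and 1 with the block. At 100 CPM or more lay 19 of the 22, a level at which 21.9% of all genes were lower. Ap2a2, a subunit of the clathrin adaptor AP-2, changed by -0.31 (edgeR adjusted p = 0.00215). Dnajc6 (auxilin), which strips clathrin from vesicles, changed by -0.28 (adjusted p = 0.0184). Ston2, the adaptor that retrieves synaptotagmin, rose by 0.39 (adjusted p = 0.0283). Among the genes named from these lists, Unc13c lost its call without WT replicate 2 or 3 or KD replicate 1 or 3 (highest adjusted p 0.0975), Ppfia2 without WT replicate 1 or 2 or KD replicate 2 (0.0661), Ston2 without WT replicate 2 or either of KD replicates 1 and 2 (0.0989) and Dnajc6 without WT replicate 2 or KD replicate 1 (0.0742).

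**Figure D4:**
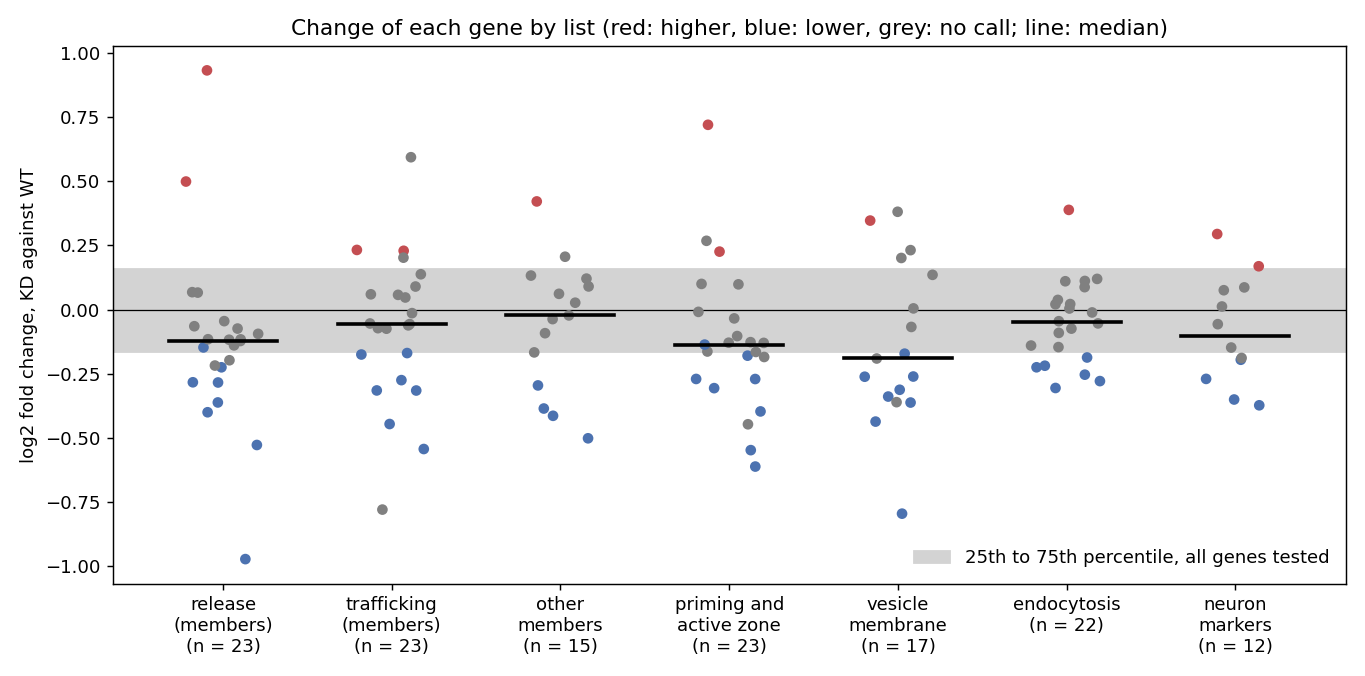
Log2 fold change of KD against WT for each tested gene (points) of the 3 groups of members, the 3 other synapse lists and the neuron markers, with the median of each list as a line and the 25th to 75th percentile of all genes tested as a grey band. The medians lie between -0.19 (vesicle membrane) and -0.02 (other members), and each list holds both called rises (red) and called falls (blue).

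Markers of the cell types in the cultures moved beside these results. For comparison, 1646 of the 13669 genes tested were higher and 1631 lower, or 2539 and 2470 with the replicate block. The 12 neuron markers summed to 6442 to 7094 TPM in WT and 5921 to 6716 TPM in KD, and 4 were lower (among them Stmn2, Gap43 and L1cam) and 2 higher (Dcx and Nefm). At 100 CPM or more lay 11 of the 12, of which 4 were lower and 1 higher. Among all genes at that level 21.9% were lower and 16.2% higher. The 11 radial glia markers summed to 3141 to 3546 TPM in WT and 3639 to 3897 TPM in KD. A single gene, at a mean of 2680 TPM over all libraries, made up most of that sum. Of the 11, 3 were higher (Pax6, Hes1 and Tnc), or 7 with the replicate block, and 10 were positive in log2 difference. The 10 intermediate progenitor markers summed to 217 to 248 and 281 to 332 TPM, with 5 of 9 tested higher, or 7 higher and 1 lower with the block. Oligodendrocyte lineage markers were at 333 to 441 and 287 to 356 TPM (2 of 8 lower, 4 with the block), astrocyte markers at 234 to 288 and 268 to 292 TPM, and inhibitory neuron markers at 458 to 677 and 493 to 758 TPM (1 of 6 higher, and 2 higher and 1 lower with the block). Microglia, endothelial and mural, and meningeal markers summed to no more than 8.51 TPM in any library, and no marker was at 0 in all libraries. The labelled brain origin thus had its neuronal and progenitor markers, and the cultures held both. The part of cell composition in the changes of the release machinery was not tested.

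The members without a call were not all shown to be stable. Of the 37, 21 had a 95% interval wholly within 0.3 of 0 on the log2 scale and 31 within 0.5. The widest were the low genes Stx11 (-1.69 to 0.13), Vamp8 (-0.22 to 1.41), Sv2c (-0.77 to 0.62) and Syt2 (-0.76 to 0.37). The 6 members not tested, Cplx3, Cplx4, Stx19, Syt15, Vamp5 and Vamp9, were under 1 CPM in every library, and a difference in them was not detectable at this depth. Fractional counts, which arise when reads are divided between genes that share sequence, occurred in 6 tested members (Stxbp4, Stxbp2, Stx18, Syt6, Syt11 and Syn3), and none of these was called.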

How the data were processed

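The sample titles gave the groups and replicate numbers (3 WT and 3 KD libraries, E13.5), and the data columns named Ctrl were assigned to the WT title of the same number. Total RNA was extracted with Trizol, mRNA was purified and libraries were sequenced on the DNBSEQ platform. The submitters' processing notes name HISAT2 2.2.1, Bowtie2 2.4.5, RSEM 1.3.1 and the builds GRCm38 and mm10, without their roles. The authors deposited estimated counts with 2 decimals (89.3% to 89.9% whole per library) and TPM values, which the authors normalized to transcript length. Per-library FPKM (6 columns) and group averages (6 columns) were not used.

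Estimated counts were rounded and fitted in R 4.3.3 by edgeR 4.0.16 (TMM scaling, filterByExpr with a minimum count of 10, quasi-likelihood F-test, two-sided, Benjamini-Hochberg adjustment over all 13669 genes tested, threshold 0.05). The methods name no test for these libraries. The SE was derived as log2 fold change over the root of F, and intervals are 95%. CPM values use TMM library sizes. The fit was tested on simulated data. The between-library coefficient of variation was 7.69% (4.71% with the block). Replicates of a group differed by a chi-square of 4.43 to 8.66 per degree of freedom, so all 6 libraries were counted. The study speaks of 3 independent experiments, and p-values measure the spread between these libraries.

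Same-numbered libraries correlated in their deviations from the group means (0.41, 0.37 and 0.23, against -0.30 to -0.02 for other pairings), so the number was taken to pair them. Because each group was centred on its own mean, the negative values follow from the positive ones and are not separate evidence. The series text speaks of 3 sequencing batches but no label ties a library to one. Alternatives were other scalings (RLE, upper quartile, total count), no filter and a 1 CPM filter, DESeq2 1.42.0, limma 3.58.1 (voom, and trend on log2(TPM + 1)), the block, an adjusted p under 0.01 and each library left out. Leaving out the second pair was chosen after seeing the data.

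Members and lists were chosen with earlier results of these data known. Named genes were members fixed by role, the 8 largest called rises and falls of at least 2 CPM, and the 2 largest of each from the 3 other lists. The remaining called members (Stx7, Stx12, Stx2, Stx3, Snap47 and Rab3b) and members with no call outside that rule were named after their values were seen. Some genes that the rule names are not reported here. Promoters are RefSeq windows on GRCm38.p6.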

Additional observations from a re-analysis of the deposited data

How the results depend on the processing

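Ybx1 was lower in every alternative (log2 -2.72 to -2.29), and no member called in the main analysis was called in the opposite direction in any of the 16 other fits. Sv2a and Syn2 of the 5 higher and Cplx1, Vamp2 and Syn1 of the 19 lower members kept their call in all 16. With the replicate block 2539 genes were higher and 2470 lower. Leaving out the second pair gave 135 genes higher and 93 lower, 2 and 3 members and a member median of -0.10. At an adjusted p under 0.01, 629 genes were higher and 634 lower, with 3 and 10 members. On log2(TPM + 1) 1072 genes were lower and the member median was -0.038. Leaving out 1 library gave 779 to 1612 genes higher and 797 to 1583 lower, 3 to 5 members higher and 11 to 17 lower, and a member median of -0.10 to -0.057. Of the 37 uncalled members, 12 turned sign on leaving out 1 library, 9 of them outside the rule for named genes, and 0 called members did. Of the named genes reported here the sign turned for Syt11 (0.016) on log2(TPM + 1), and on leaving out 1 library for Snap25 (-0.11 to 0.0082), Rab3c (-3.4e-04 to 0.11) and Sv2b (-0.32 to 0.089, with 0.055 without KD replicate 1). These settings test fewer libraries, apply a stricter threshold or use another unit, and beyond that the cause was not tested. The higher share of all calls was 50.2% with TMM, 43.0% to 57.9% with other scalings and 65.9% on TPM, and among called members 20.8%, up to 26.3% with other scalings and 31.6% on TPM, where the median of all genes was 0.046. With the block Stx1a and Syt4 gained a call and no called member lost one. Depth limits the members under 1 CPM.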
